A study of Mus musculus with 4 samples.

Results

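The cells described here are the 1314 CD45+ cells in which transcripts of the late cell cycle were found, among 15476 kept cells of mouse brain and dura mater and 18969 barcodes in all, and they are called cycling cells below. A cell was kept when more than 1000 genes were detected and mitochondrial genes gave at most 7% of its expression. A kept cell was called cycling when at least 4 of 6 genes, Mki67, Top2a, Birc5, Ccna2, Ube2c and Nusap1, were above 0. The cycling cells were then split by lineage genes in a fixed order, so that a cell took the first name it met. A cell with Cd79a was called Cd79a-positive, which is the criterion for a B cell. A cell with Cd3e was called Cd3e-positive, which is that for a T cell. Next came granulocyte precursors by Mpo or Elane, immature neutrophils by Ngp at a deposited value of 2 or more, macrophages by C1qa at 1.5 or more, and monocytes by Ly6c2 together with Ccr2. This gave 252 Cd79a-positive cells, 105 Cd3e-positive cells, 382 granulocyte precursors, 145 immature neutrophils, 224 macrophages, 108 monocytes and 98 cells of no lineage. The cells were chosen by the measured values of these genes, so their levels are descriptions and carry no test.

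All 4 libraries were made from C57BL/6J mice, adults that were 8 weeks old, on day 3 after surgery. In the injured groups, D3, photothrombotic injury (PTI) had been made with Rose Bengal and white light over the skull, and in the control groups, S3, a sham operation had been made. Living CD45+ cells, which are cells of the blood lineage, were sorted from the dura mater or the brain by flow cytometry and sequenced on the 10x Chromium platform with the 3' v3 chemistry. Each combination of tissue and operation had 1 library, the number of mice in it was not stated, and no difference given here has a replicate check. The unit is the unique molecular identifier (UMI), which marks 1 captured RNA molecule. Levels of genes are counts per 1000000 UMIs (CPM) summed over the cells of a group, and all intervals are exact 95% intervals that cover counting error only. Where the levels of 1 gene in cycling and non-cycling cells are set side by side, their intervals did not overlap, apart from Cd8a in brain S3, Folr2 in dura mater D3 and Olfml3 within microglia.

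A dividing cell copies its DNA in S phase, with the Mcm helicase, the clamp Pcna and ribonucleotide reductase, and then assembles the spindle and segregates its chromosomes in G2 and M phase, when the genes of the rule are most active. Mki67 encodes a protein that coats mitotic chromosomes, Top2a the topoisomerase that untangles DNA, Birc5 survivin of the chromosomal passenger complex, Ccna2 cyclin A2, Ube2c an enzyme that feeds the anaphase promoting complex, and Nusap1 a spindle protein. In bone marrow, including that of the skull next to the dura mater, B cell precursors divide before they rearrange their light chains, granulocyte precursors divide while they make the contents of their granules, and neutrophils leave the cycle as they mature. Microglia and border macrophages renew themselves by division inside the tissue.

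The 6 rule genes are transcribed in the same phase of the cycle, and the 100 bases before the transcription start are shown for the 5 of them that matched the RefSeq promoter table (GRCm38.p6), 5' to 3' along the gene. Capitals mark 2 short motifs on either strand, TTTGAA or TTCAAA, the core of the cell cycle genes homology region bound by the MuvB complexes, and CCAAT or ATTGG, the box bound by NF-Y.
Mki67, chr7:135716380-135716479, minus strand: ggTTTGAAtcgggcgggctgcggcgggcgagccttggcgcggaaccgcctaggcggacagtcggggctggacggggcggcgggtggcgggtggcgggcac
Top2a, chr11:99024190-99024289, minus strand: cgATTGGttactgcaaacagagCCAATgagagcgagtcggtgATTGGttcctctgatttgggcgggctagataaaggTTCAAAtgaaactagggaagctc
Birc5, chr11:117849137-117849236, plus strand: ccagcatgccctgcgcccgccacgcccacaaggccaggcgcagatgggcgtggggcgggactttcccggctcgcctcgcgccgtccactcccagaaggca
Ube2c, chr2:164769829-164769928, plus strand: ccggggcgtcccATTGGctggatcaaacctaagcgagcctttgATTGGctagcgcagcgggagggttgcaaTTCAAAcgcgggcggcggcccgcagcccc
Nusap1, chr2:119618198-119618297, plus strand: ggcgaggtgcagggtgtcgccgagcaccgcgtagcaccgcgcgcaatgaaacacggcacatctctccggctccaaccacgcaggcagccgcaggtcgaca
In the 250 bases before the start, TTTGAA in either orientation was found 2 times for Mki67, 2 times for Top2a and 1 time for Ube2c, and CCAAT 3, 6 and 6 times. Neither motif was found for Birc5 or Nusap1. Of all 32851 promoters in the table, 16.0% held the first motif and 33.8% the second in a stretch of the same length. The 2 motifs share no bases. A match is a string of letters and not a measured binding site.

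The libraries held between 49003977 and 115154317 UMIs, and any pair of them shared between 3 and 11 cell barcodes. Median UMIs per kept cell were 8585 in brain S3, 16118 in brain D3, 9996 in dura mater S3 and 15192 in dura mater D3, so the D3 libraries were the deeper ones. Ptprc, which encodes the sorted protein CD45, was detected in 98.6% of the cycling cells in brain S3, 97.3% in brain D3, 91.4% in dura mater S3 and 98.0% in dura mater D3. Mature neutrophils are cells that have left the cycle. Of the cells of no lineage with a UMI of Cxcr2 and at least 3 genes of the mature neutrophil list, 0 of 254, 1 of 216, 0 of 199 and 1 of 121 met the rule in the same order, at a low median depth between 3793 and 6582 UMIs. The list alone did not set cells of this kind apart, since at least 3 of its genes were also found in 15 of 26 cycling Cd79a-positive cells of brain S3 and 103 of 185 of dura mater S3.

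Most of the cells were well inside the threshold. All 6 genes were detected in 961 of the 1314 cycling cells (73.1%), while 144 kept cells had exactly 4 of the 6 and lay just inside the threshold and 186 had exactly 3 and lay just outside. Mki67 was at 541 CPM in brain S3, 301 in brain D3, 556 in dura mater S3 and 519 in dura mater D3 over all cycling cells. In the cells with exactly 4 genes it was at 181, 99.1, 176 and 172 CPM in the same order, and in the cells with exactly 3 at 73.8, 38.3, 156 and 101 CPM. S phase transcripts took no part in the rule but belong to the same program. On both sides of the threshold they were higher than in kept cells with none of the 6 genes, to a differing degree. A list of 24 S phase genes gave 18 UMIs per 10000 in brain S3, 6.67 in brain D3, 30.8 in dura mater S3 and 12.7 in dura mater D3 in the cells with 3 genes and 27.8, 12.1, 39.2 and 23.6 in those with 4. The kept cells with none of the 6 genes, called non-cycling cells below, gave 3.78, 2.96, 3.91 and 3.41. A list of 26 G2/M genes gave 5.60, 3.45, 9.36 and 6.57 UMIs per 10000 with 3 genes, 12.2, 8.66, 11.9 and 14.3 with 4 and 47.4, 29.4, 48.3 and 40.2 with all 6. The number of rule genes fixed the order of the G2/M values, so nothing is read from them. The cells were grouped by genes of the program to which the S phase list also belongs, so its values are descriptions too.

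Cycling cells were most frequent in the dura mater. They made up 143 of 3842 cells (3.72%, interval 3.15 to 4.37%) in brain S3, 408 of 5103 cells (8.00%, interval 7.27 to 8.77%) in brain D3, 464 of 3669 cells (12.6%, interval 11.6 to 13.8%) in dura mater S3 and 299 of 2862 cells (10.4%, interval 9.35 to 11.6%) in dura mater D3. The brain share was thus higher at D3, by a log2 ratio of 1.10 (interval 0.82 to 1.39), while the dura mater share was lower at D3, by -0.28 (interval -0.49 to -0.06). Dura mater exceeded brain by 1.76 on the log2 scale at S3 (interval 1.49 to 2.05) and by 0.39 at D3 (0.17 to 0.60). The difference in the brain was smaller at equal depth. With every cell thinned to 5000 UMIs the shares were 3.44% in brain S3, 4.85% in brain D3, 11% in dura mater S3 and 7.93% in dura mater D3, and with every cell thinned to 2000 UMIs they were 1.73%, 1.81%, 5.45% and 3.72%. The log2 ratio of brain D3 to S3 was then 0.49 and 0.07, and with cells of 6000 or more genes left out 0.53. The order of dura mater above brain was present at each depth. Thinning to 5000 UMIs left out 716, 550, 626 and 249 shallower cells, and thinning to 2000 left out 1, 5, 4 and 2.

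**Figure D1:**
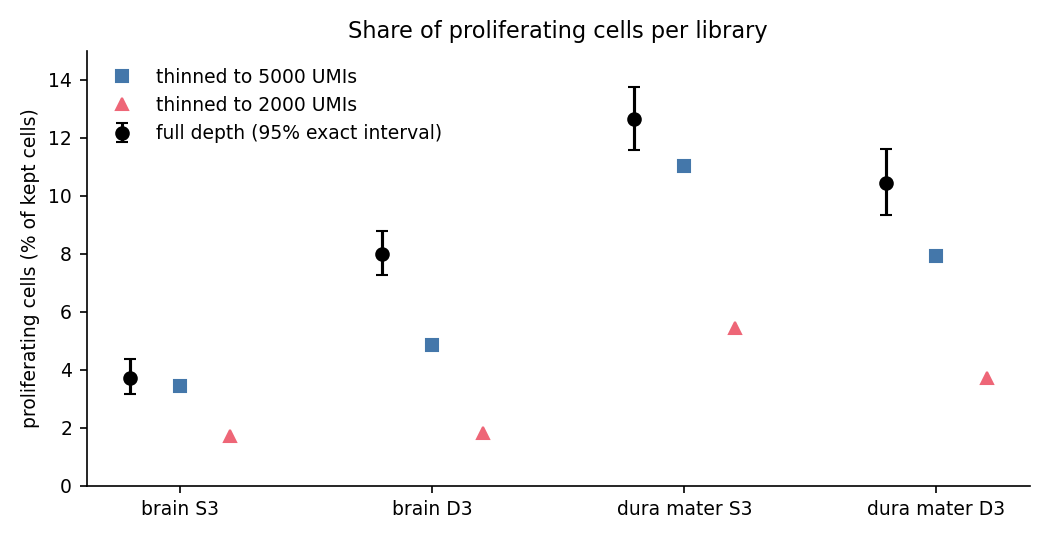
Cycling cells as a percentage of kept cells in each library (vertical axis) at full depth, with exact 95% intervals, and after each cell was thinned to 5000 or 2000 UMIs. At full depth brain D3 lies above brain S3 (8.00% against 3.72%), while at 2000 UMIs the brain libraries lie close together (1.81% against 1.73%) and both dura mater libraries stay above them.

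Cycling cells had more UMIs than non-cycling cells, but both groups were drawn by whether the rule genes were detected. Detection is more likely in a deep cell, so the rule itself favours deep cells as cycling and shallow cells as non-cycling. The median UMIs of cycling cells were 32141 in brain S3, 44109 in brain D3, 27915 in dura mater S3 and 37655 in dura mater D3. Those of non-cycling cells were 8013, 12904, 7781 and 11468. Kept cells below the threshold were also deeper than non-cycling cells. In brain S3 their medians were 11035 UMIs with 1 rule gene, 17679 with 2 and 26299.5 with 3. The part of this selection in the UMIs of cycling cells was not tested. Cycling cells gave 10.9%, 19.2%, 28.4% and 22.7% of the UMIs of kept cells. They also met more than 1 lineage criterion more often, in 39.9% of cycling cells in brain S3, 46.6% in brain D3, 41.6% in dura mater S3 and 47.8% in dura mater D3, against 12.7%, 12.5%, 17.6% and 15.9% of non-cycling cells. The doublet score marked 11, 41, 25 and 16 of them (7.69%, 10.0%, 5.39% and 5.35%), against 3.93%, 5.27%, 3.9% and 3.04% of kept cells. With the marked cells left out, the log2 ratio of the cycling share at D3 to S3 was 1.09 in the brain and -0.29 in the dura mater. The part of unmarked doublets and free RNA in these shares was not tested. Neither was the part of depth in the share of cells that met more than 1 criterion.

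Cycle genes that the rule did not use were also compared. The rule drew both groups of cells by genes of the same program, so these levels are descriptions and not a check of the name. In every library the genes named here were higher in cycling than in non-cycling cells. Mcm5, a subunit of the replicative helicase, was at 158 CPM in brain S3, 90.7 in brain D3, 192 in dura mater S3 and 141 in dura mater D3 in cycling cells and at 12.3, 8.29, 12.9 and 11.1 CPM in non-cycling cells. Rrm2, the small subunit of ribonucleotide reductase, was at 209, 128, 304 and 269 against 1.64, 0.973, 2.39 and 1.76 CPM. Cdk1, the kinase that starts mitosis, was at 269, 206, 302 and 252 against 4.18, 4.50, 5.22 and 5.32 CPM, and Aurkb, the kinase of the chromosomal passenger complex, at 145, 68.1, 133 and 116 against 2.33, 2.04, 3.50 and 2.74 CPM. The smallest of these ratios were those of Mcm5.

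The comparison with non-cycling cells was made within Cd79a-positive cells of dura mater S3, Cd3e-positive cells of brain S3, granulocyte precursors of dura mater S3, immature neutrophils of dura mater S3, macrophages of brain D3, macrophages of dura mater D3 and monocytes of dura mater S3, and the values that follow keep this order. A gene was compared when both groups together held 50 UMIs or more of it, and a gene was counted when it was at least 2-fold higher, which held for 12%, 9.18%, 13.9%, 16.6%, 7.74%, 9.08% and 9.69% of all genes compared. Of the S phase list, 24 of 24, 23 of 23, 24 of 24, 16 of 17, 22 of 24, 22 of 23 and 17 of 17 genes were counted, and of the G2/M list 25 of 26, 21 of 22, 25 of 26, 24 of 25, 25 of 26, 24 of 25 and 23 of 24. All 12 genes of a chromatin and tubulin list were counted in each comparison. Among them were Stmn1, which destabilises microtubules, at 1133 CPM in brain S3, 698 in brain D3, 1317 in dura mater S3 and 1074 in dura mater D3 in cycling and 24.5, 28.8, 41.4 and 29.3 CPM in non-cycling cells, and the chromatin protein Hmgb2 at 3740, 1517, 3912 and 3317 against 462, 255, 498 and 424 CPM. The rule drew the cells by genes of the same program in the same cells, so nothing is read from these counts.

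Regulators of entry into S phase were less uniform, with 10 of 13, 6 of 12, 9 of 13, 5 of 9, 5 of 13, 7 of 12 and 3 of 8 of the list counted. The 12 genes for ribosome biogenesis and nucleotide synthesis gave 8 of 12, 3 of 12, 7 of 12, 5 of 9, 2 of 12, 3 of 11 and 4 of 9. Of 12 glycolysis genes, 4 of 12, 4 of 12, 4 of 12, 1 of 12, 0 of 12, 3 of 12 and 0 of 12 were counted. Their summed level was 76.6 UMIs per 10000 in the cycling and 79.5 in the non-cycling cells of brain D3, and 48.0 and 28.1 in those of brain S3. The inhibitor Cdkn2c, which blocks the D cyclin kinases, was itself higher in cycling cells, at 94.5 CPM in brain S3, 68.5 in brain D3, 79.3 in dura mater S3 and 88.1 in dura mater D3 against 10.7, 6.11, 9.79 and 9.97 CPM. Immediate early and heat shock genes of the tissue dissociation list were lower in cycling cells, and at least 2-fold lower for 8 of 12, 2 of 12, 8 of 12, 4 of 12, 2 of 12, 12 of 12 and 4 of 12 genes, beside 16.6%, 8.03%, 15.8%, 11.6%, 4.11%, 8.35% and 7.79% of all genes compared. The summed level of this list was 79.6 UMIs per 10000 in brain S3, 73.7 in brain D3, 51.0 in dura mater S3 and 45.0 in dura mater D3 in cycling and 162, 112, 128 and 136 in non-cycling cells. All 12 of its genes were lower in the cycling macrophages of dura mater D3, with a median log2 ratio of -1.43 beside 0.08 over all genes compared.

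The lineages differed widely in how many of their cells were cycling, as the plot of shares by lineage shows. Granulocyte precursors were highest in every library, at 39.0% in brain S3, 34.9% in brain D3, 34.0% in dura mater S3 and 40.1% in dura mater D3. Macrophages were lowest in brain S3, at 0.999%, and in dura mater S3, at 2.35%. The make-up of the cycling population differed between the libraries. Macrophages were 5.59% of the cycling cells in brain S3, 40.2% in brain D3, 2.59% in dura mater S3 and 13.4% in dura mater D3, Cd79a-positive cells 18.2%, 2.70%, 39.9% and 10.0% in the same order, and granulocyte precursors 22.4%, 24.3%, 28.2% and 40.1%. By number, brain D3 was led by macrophages, dura mater S3 by Cd79a-positive cells and dura mater D3 by granulocyte precursors, and this depends on the order of the criteria. Among the cycling cells of dura mater D3 that met 1 criterion, 38 were macrophages, 27 monocytes, 26 immature neutrophils and 11 granulocyte precursors. With 1 library each, a change in the number of cells of a lineage and a change in how the tissue was sampled cannot be told apart.

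**Figure D2:**
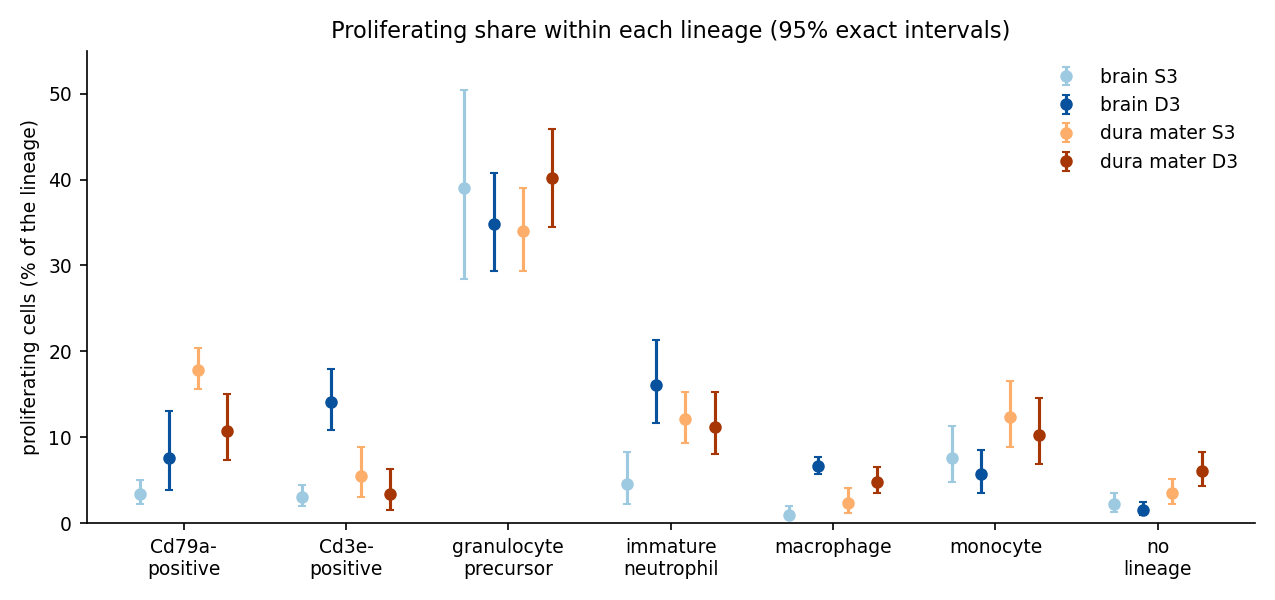
Cycling cells as a percentage of all kept cells of the same lineage (vertical axis) in each library, with exact 95% intervals. Granulocyte precursors lie between 34.0% and 40.1% in all libraries, and brain D3 lies above brain S3 for immature neutrophils, macrophages and Cd3e-positive cells.

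**Figure D3:**
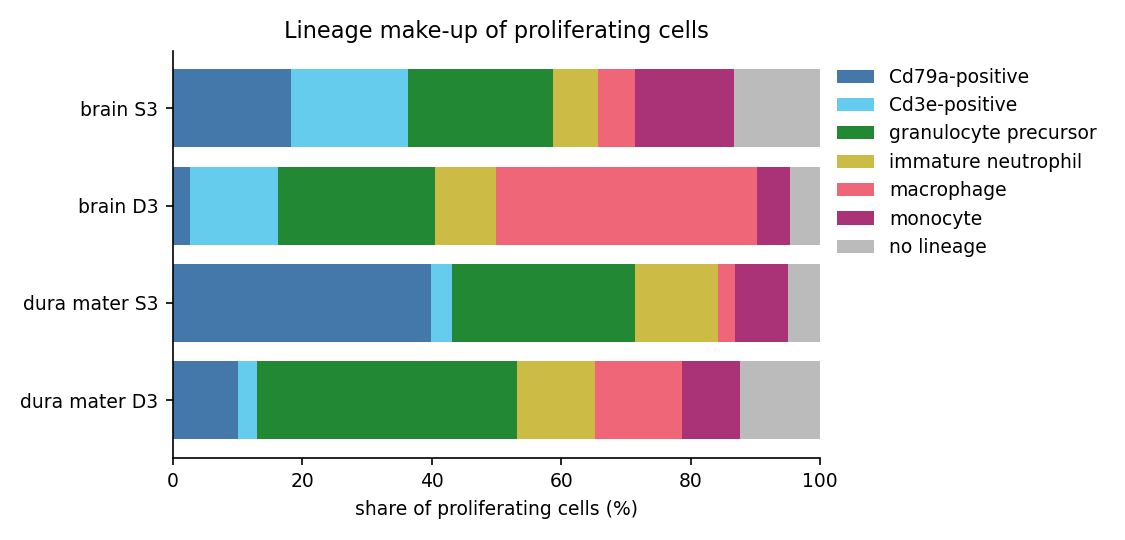
Lineage make-up of the cycling cells in each library, as stacked shares of 143, 408, 464 and 299 cells from top to bottom. Macrophages take 40.2% in brain D3, and Cd79a-positive cells take 39.9% in dura mater S3 against 10.0% in dura mater D3.

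The balance between the phases also differed by lineage. The log2 ratio of G2/M to S phase UMIs was highest in immature neutrophils, at 2.64 in brain S3, 1.67 in brain D3, 1.55 in dura mater S3 and 1.49 in dura mater D3, which had the lowest S phase level of the granulocytic cells at 6.53, 10.4, 14.0 and 11.9 UMIs per 10000. Granulocyte precursors gave 0.65, 0.46, 0.26 and 0.37 on the same log2 scale with S phase levels of 25.5, 21.4, 28.6 and 26.7. Monocytes gave 0.90, 0.81, 1.12 and 1.04. Cells of no lineage had the lowest ratios, at 0.25, 0.27, -0.59 and -0.19. The highest S phase level of all was that of the Cd79a-positive cells of dura mater S3, at 44.3 UMIs per 10000, followed by 36.3 in the cells of no lineage of the same library. Non-cycling cells gave -0.72, -0.79, -0.48 and -0.62, with more S phase than G2/M UMIs in every library.

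**Figure D4:**
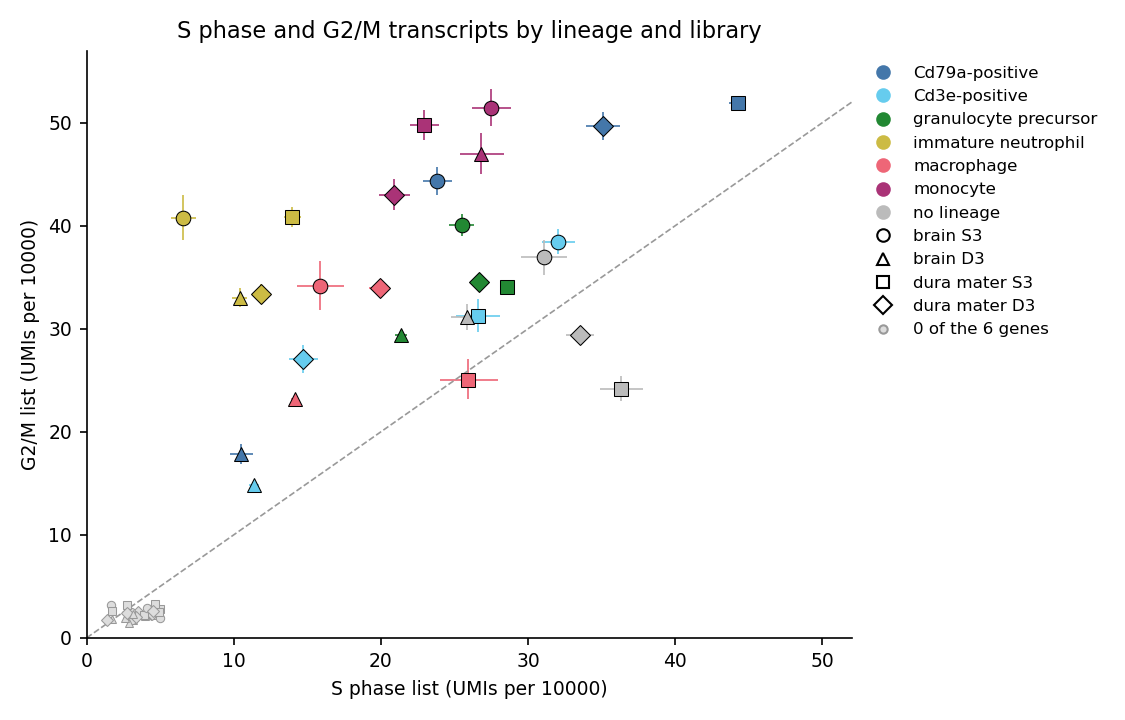
Summed S phase list (horizontal axis) and G2/M list (vertical axis) in UMIs per 10000 for the cycling cells of each lineage (colour) and library (symbol), with exact 95% intervals, and for non-cycling cells in grey near the origin. The dashed line marks equal values. Immature neutrophils lie far above it at low S phase levels, and the Cd79a-positive cells of dura mater S3 have the highest S phase value, 44.3.

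The Cd79a-positive cells of dura mater S3 were the largest group of cycling cells of 1 lineage in 1 library, and most of them carried genes of B cell precursors. Of the Cd79a-positive cells, 26 of 759 cells (3.43%, interval 2.25 to 4.98%) were cycling in brain S3, 11 of 146 cells (7.53%, interval 3.82 to 13.1%) in brain D3, 185 of 1035 cells (17.9%, interval 15.6 to 20.3%) in dura mater S3 and 30 of 279 cells (10.8%, interval 7.37 to 15%) in dura mater D3. D3 over S3 gave a log2 ratio of -0.73 (interval -1.34 to -0.17) in the dura mater and 1.14 (interval -0.03 to 2.20) in the brain, where only 11 cells were cycling at D3. Leaving out cells of 6000 or more genes turned the brain value to -0.72, thinning to 2000 UMIs to -0.43, and cells of 1 criterion or the reverse lineage order to -0.69.

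A cell was said to carry the precursor set when at least 3 of Vpreb1, Vpreb2, Vpreb3, Igll1, Rag1, Rag2, Dntt and Il7r were detected. In dura mater S3, 121 of 299 (40.5%, interval 34.9 to 46.3%) of the cells with the set were cycling and 64 of 736 (8.70%, interval 6.76 to 11%) of those without it. In dura mater D3 the numbers were 14 of 35 (40%, interval 23.9 to 57.9%) and 16 of 244 (6.56%, interval 3.79 to 10.4%). The cycling shares of precursors thus had overlapping intervals at S3 and D3, while cells with the set were 299 of 1035 Cd79a-positive cells at S3 and 35 of 279 at D3. The brain held 5 and 2 such cells.

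Cells with the surrogate light chain genes were often cycling. Of the Cd79a-positive cells with a UMI of Igll1, 72 of 115 (62.6%, interval 53.1 to 71.5%) were cycling in dura mater S3 and 12 of 12 in dura mater D3. The cells with Igll1 were deep, with medians of 17354 and 28185 UMIs, against 8001 and 5812 in all cells with the precursor set. The part of depth in these shares was not tested. Igll1, which encodes the lambda 5 chain, was at 209 CPM in cycling and 72.7 CPM in non-cycling cells of dura mater S3. In dura mater D3 it was at 135 CPM in cycling cells and at 0 UMIs in non-cycling cells, which allows up to 1.87 CPM. Vpreb1, its partner, was at 236 against 114 CPM at S3 and 185 against 1.52 CPM at D3. Both genes were thus higher in the cycling cells in both libraries.

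Genes of B cells that have finished rearrangement were lower in the cycling cells. Ms4a1, which encodes CD20, was at 53.5 against 789 CPM in dura mater S3 and 109 against 679.9 CPM in dura mater D3. Ighd, the IgD heavy chain, was at 26.1 against 147 CPM in dura mater S3. Rag1, whose product cuts the antigen receptor genes, was lower in cycling cells at 25.3 against 93.8 CPM. Among the cells with the precursor set alone it was at 42.5 CPM in cycling and 456 CPM in non-cycling cells of dura mater S3, while Igll1 was at 351 and 449.8 CPM there. In dura mater D3 Rag1 was at 6.77 CPM in the 14 cycling and 599 CPM in the 20 non-cycling cells with the set. Within precursors, Rag1 was low in the cycling cells of both libraries, whereas Igll1 differed less in dura mater S3. In dura mater D3 all 12 Cd79a-positive cells with a UMI of Igll1 were cycling, so the non-cycling cells with the set had none. Rag1 and Igll1 belong to the set that chose these precursors, so the levels are descriptions.

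Ccnd3, the D cyclin of lymphoid precursors, was higher in cycling Cd79a-positive cells, at 562 against 216 CPM in dura mater S3 and 654 against 171 CPM in dura mater D3. Btg1, an antiproliferative gene, was lower, at 452 against 1819.8 CPM in dura mater S3, and Cdkn1b, which encodes the inhibitor p27, was at 77.2 against 137 CPM.

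Genes of other lineages were also found in these cells. A UMI of Mpo or Elane was found in 47 of 185 cycling Cd79a-positive cells of dura mater S3 and 7 of 30 of dura mater D3, and Elane, the neutrophil elastase, was at 900.2 CPM in the cycling and 5.54 CPM in the non-cycling cells of dura mater S3. In the cycling cells with Mpo or Elane, Elane was at 2536 CPM and Cd79a at 491 CPM, against 962 CPM of Cd79a in the cycling cells without them. With those cells left out, 100 of 265 (37.7%, interval 31.9 to 43.9%) of the cells with the precursor set were cycling in dura mater S3 and 14 of 35 in dura mater D3, so the share was nearly as large. A single UMI of Cd79a was the whole criterion in 35 of 185 cycling cells of dura mater S3 and 10 of 30 of dura mater D3. In brain D3, C1qa reached the macrophage level in 10 of 11 cycling Cd79a-positive cells, and without such cells 1 of 93 Cd79a-positive cells were cycling there. At least 3 genes of the B cell list were found in 9 of 11 of the cycling cells of brain D3 and 21 of 26 of those of brain S3, so B cell and macrophage genes were found together in the brain D3 cells. The doublet score marked 11 of the 185 cycling Cd79a-positive cells of dura mater S3, and the part of mixed cells in these results was not tested.

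Cycling Cd79a-positive cells of the dura mater were compared between D3 and S3 over 8359 genes, of which 3.94% were at least 2-fold higher and 4.27% at least 2-fold lower at D3. Few cycle genes passed 2-fold, with 1 of 24 S phase genes lower and 0 of 26 G2/M genes higher. Of the ribosome biogenesis and nucleotide synthesis list 3 of 12 genes were lower, with a median log2 ratio of -0.77 beside -0.10 over all genes. The B cell list gave 1 of 6 higher and the B cell precursor list 1 of 8 lower. More differences lay in genes of other cells. All 6 genes of the macrophage list were higher, with C1qa at 857 against 107 CPM (log2 ratio 3.01, interval 2.85 to 3.17). Of other lists, 5 of 5 of the border macrophage list were higher, 5 of 6 of the granulocyte precursor list were lower and 4 of 4 of the basophil list were lower. Fcgr1, which encodes the Fc receptor CD64, had a log2 ratio of 3.58. The summed level of the 6 macrophage genes was 9.06 UMIs per 10000 at S3 and 55 at D3, with cells between 0 and 263 at S3 and between 0 and 467 at D3, and none of the 6 was at 0 in either library. The part of RNA of other cells in these ratios was not tested. The largest lower value was that of Ighg2b, an antibody heavy chain, of whose 4600 UMIs at S3 98.9% came from 1 cell. Jchain, which joins antibody chains in plasma cells, had 1157 UMIs at S3, 99.4% of them in 1 cell. With only cells that met 1 lineage criterion, 17 at D3 and 116 at S3, 0.286% of the genes compared were at least 2-fold higher at D3 in place of 3.94%.

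Cycling Cd3e-positive cells of brain S3 held T cell receptor genes, while most of those of brain D3 held T cell and macrophage genes together. Of the Cd3e-positive cells, 26 of 847 cells (3.07%, interval 2.01 to 4.47%) were cycling in brain S3, 55 of 389 cells (14.1%, interval 10.8 to 18%) in brain D3, 15 of 274 cells (5.47%, interval 3.1 to 8.87%) in dura mater S3 and 9 of 266 cells (3.38%, interval 1.56 to 6.33%) in dura mater D3. Between D3 and S3 the log2 ratio was 2.20 (interval 1.51 to 2.94) in the brain and -0.69 (interval -2.07 to 0.59) in the dura mater. In brain D3, 49 of 55 cycling Cd3e-positive cells also had C1qa at the macrophage level, as did 8 of 9 in dura mater D3, and 47 of 55 of brain D3 carried at least 3 of 6 microglia genes. At least 3 genes of the T cell list were found in 25 of 26 cycling cells of brain S3 and 53 of 55 of brain D3. Among Cd3e-positive cells without C1qa at that level, 20 of 725 (2.76%, interval 1.69 to 4.23%) were cycling in brain S3, 6 of 172 (3.49%, interval 1.29 to 7.44%) in brain D3, 11 of 200 in dura mater S3 and 1 of 153 in dura mater D3. In these cells the shares of brain S3 and brain D3 had overlapping intervals. The ratio for all Cd3e-positive cells was 0.62 with cells of 6000 or more genes left out, 0.85 at 5000 UMIs, 0.12 at 2000 UMIs, 0.44 with the lineage order reversed and 0.67 in cells of 1 criterion. Cd3e, a chain of the T cell receptor complex, was at 223 CPM in the cycling cells of brain S3 and 57.5 CPM in those of brain D3. Within brain D3 it was at 49.2 CPM in the 49 cycling cells with C1qa, whose median was 69481 UMIs, and only 6 cycling cells were left without C1qa. Trac, the constant part of the receptor's alpha chain, was at 399.6 CPM in brain S3 and 66.7 CPM in brain D3, while C1qa was at 1357 and 5367 CPM.

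Between D3 and S3, 12.1% of 7898 genes were at least 2-fold higher and 10.4% at least 2-fold lower in the cycling Cd3e-positive cells of the brain, the largest shares of any lineage compared. All 8 genes of the T cell list were lower (median log2 ratio -2.29), and 5 of 6 of the microglia list and 5 of 6 of the infiltrating macrophage list were higher, among them Arg1, which encodes arginase 1, with 0 UMIs at S3, which allows up to 3.75 CPM, and 272 CPM at D3. S phase genes were lower in 20 of 24 and G2/M genes in 22 of 26. With only cells that met 1 lineage criterion, 1.15% of the genes compared were at least 2-fold higher, but these were 5 cells at D3 and 14 at S3, too few for a like comparison. The summed level of the 6 macrophage genes was 172 UMIs per 10000 at S3 and 311 at D3, with cells between 0 and 1070.3 at S3 and between 2.44 and 612 at D3, and none of the 6 was at 0 in either library. The part of macrophage RNA in these differences was not tested.

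The cycling Cd3e-positive cells of brain S3 had the receptor genes of alpha-beta T cells and few of gamma-delta T cells. Trbc2, a constant part of the beta chain, was at 1009.7 CPM in cycling and 1171 CPM in non-cycling cells, and Cd8a at 113 and 92.7 CPM. Trdc, the constant part of the delta chain, was found in 1 of 26 cycling cells, at 24.4 CPM, and in 171 of 689 non-cycling cells, at 514 CPM. Cd163l1, a scavenger receptor gene, was at 2.03 against 210.5 CPM. Cells with at least 3 genes of the gamma-delta list were cycling in 2 of 166 (1.20%, interval 0.146 to 4.28%). The direction was the same in dura mater S3, where Trdc was at 103 CPM in cycling and 1528 CPM in non-cycling cells. Effector genes were unevenly spread. Gzma, a granzyme of cytotoxic cells, was at 1599.5 CPM in cycling and 78.0 CPM in non-cycling cells of brain S3, and its 1573 UMIs came from 12 of the 26 cells. Il7r, the receptor for the survival cytokine interleukin 7, was lower at 54.9 against 417 CPM.

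With the criteria in their fixed order, granulocyte precursors had the highest cycling shares and the most cycling cells. Of their 382 cycling cells, 6, 11, 29 and 11 met no other criterion in brain S3, brain D3, dura mater S3 and dura mater D3. Of the cells assigned by Mpo or Elane, 32 of 82 cells (39.0%, interval 28.4 to 50.4%) were cycling in brain S3, 99 of 284 cells (34.9%, interval 29.3 to 40.7%) in brain D3, 131 of 385 cells (34.0%, interval 29.3 to 39.0%) in dura mater S3 and 120 of 299 cells (40.1%, interval 34.5 to 45.9%) in dura mater D3. The log2 ratio of D3 to S3 was -0.16 (interval -0.75 to 0.46) in the brain and 0.24 (interval -0.13 to 0.61) in the dura mater, and both intervals held 0. With the lineage order reversed the dura mater ratio was -0.54, in cells of 1 criterion -0.23, and the brain ratio at 2000 UMIs was -0.94.

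A single UMI of Mpo or Elane is a weak criterion, and the cycling share was far higher in cells with more of the marker genes. Of cells with at least 3 of Mpo, Elane, Prtn3, Ctsg, Ms4a3 and Gfi1, 25 of 27 (92.6%, interval 75.7 to 99.1%) were cycling in brain S3, 68 of 77 (88.3%, interval 79.0 to 94.5%) in brain D3, 102 of 148 (68.9%, interval 60.8 to 76.3%) in dura mater S3 and 92 of 114 (80.7%, interval 72.3 to 87.5%) in dura mater D3. Of the cells without the set only 12.7%, 15%, 12.2% and 15.1% were cycling. Most cells with the set were cycling in each library. The cells with the set were also deeper, with a median of 38006, 41565, 35074 and 40127 UMIs against 13883, 21778, 14414 and 19384 in those without it, and the part of depth in this split was not tested.

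The granule proteases were far higher in the cycling cells. Elane was at 1661 CPM in brain S3, 2879 in brain D3, 2798 in dura mater S3 and 1801 in dura mater D3 in cycling cells and 15.8, 32.3, 38.0 and 27.1 CPM in non-cycling cells. Prtn3, proteinase 3, was at 2134, 3522, 3078 and 2883 against 5.26, 45.3, 44.9 and 54.2 CPM, and Mpo, the myeloperoxidase, at 2023, 1521, 1809 and 937 against 71.9, 30.5, 111 and 56.0 CPM. Mpo and Elane chose the cells, but Prtn3 did not.

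Genes of the next stage were present at the same time. Fcnb, which encodes ficolin B of promyelocytes and myelocytes, was at 92.9 CPM in brain S3, 254 in brain D3, 452 in dura mater S3 and 344 in dura mater D3 in the cycling precursors. Cebpe, the transcription factor of the secondary granules, was at 58.2, 198, 219.6 and 215 CPM, and Camp, the cathelicidin of those granules, at 2503, 9497, 16113 and 14055 CPM. Brain S3 was the lowest library for all 3. The criterion of immature neutrophils, Ngp at 2 or more, was also met by 1 of 32 cycling precursors in brain S3, 25 of 99 in brain D3, 41 of 131 in dura mater S3 and 38 of 120 in dura mater D3.

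Monocyte genes were found in the same cells, and Ly6c2 and Ccr2 were both found in 75% of cycling precursors in brain S3, 56.6% in brain D3, 49.6% in dura mater S3 and 56.7% in dura mater D3, against 17.9%, 26.1%, 20.4% and 13% of non-cycling ones. The cycling precursors were deeper, with medians of 37798, 41565, 36788 and 41593 UMIs against 11077, 17105, 12064 and 16847. The part of depth in these shares was not tested. C1qa at the macrophage level was found in 9.38%, 28.3%, 6.11% and 15.8% of cycling and 46.2%, 45.4%, 30.9% and 55% of non-cycling precursors, so the non-cycling cells of this criterion held more macrophage transcripts than the cycling ones. Early progenitors were few, with the stem and progenitor set in 4 of 32 cycling cells in brain S3, 9 of 99 in brain D3, 14 of 131 in dura mater S3 and 13 of 120 in dura mater D3. Cdk6, a D cyclin kinase of early progenitors, was at 150.3, 98.5, 185 and 99.4 CPM and Cd34 at 55.9, 33.0, 81.9 and 41.1 CPM, both highest in dura mater S3.

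In the brain, the cycling granulocyte precursors of D3 held more transcripts of later neutrophil stages than those of S3. Of 8064 genes 6.09% were at least 2-fold higher and 2.72% at least 2-fold lower at D3. In cells of 1 criterion, 11 at D3 and 6 at S3, 3.09% were higher, and with 200 UMIs or more per gene 1.3% were lower. All 6 genes of the immature neutrophil list were higher (median log2 ratio 2.0 beside -0.07 over all genes) and 5 of 6 of the mature neutrophil list (2.25), among them Retnlg with 4.64, while 0 of 6 genes of the granulocyte precursor list passed 2-fold. Of the MHC class II list 4 of 6 genes were lower (-1.08). No S phase or G2/M gene passed 2-fold, with medians of -0.30 and -0.46. Microglia genes were higher in 6 of 6 (3.77) and macrophage genes in 6 of 6 (2.16), and C1qa at the macrophage level was found in 9.38% of the cycling precursors at S3 and 28.3% at D3. Among the named genes with the largest ratios were Gpr84 at 70.8 against 0.755 CPM (log2 ratio 6.55, interval 4.06 to 11.86), the chemokine gene Ccl12 at 212 against 3.78 CPM (log2 ratio 5.81, interval 4.58 to 7.44) and Sparc at 273 against 6.04 CPM (log2 ratio 5.50, interval 4.52 to 6.71). The summed level of the 6 macrophage genes was 29.3 UMIs per 10000 at S3 and 121 at D3, with cells between 0 and 344 at S3 and between 1.63 and 622 at D3, and none of the 6 was at 0 in either library. The part of macrophage RNA in these ratios was not tested. All 5 genes of the basophil list were lower, but at S3 all 2133 UMIs of the basophil protease gene Prss34 came from 1 cell and at D3 all 1214 from 1 cell.

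In the dura mater, 2.11% of 9009 genes were at least 2-fold higher and 1.18% at least 2-fold lower in the cycling granulocyte precursors of D3. No gene of the S phase, G2/M, granulocyte precursor or immature neutrophil lists passed 2-fold. Of the mature neutrophil list 3 of 6 were higher, among them Mmp8, the neutrophil collagenase, with 2.05. Ifitm1, an interferon-induced membrane protein, was at 178 against 21.1 CPM (log2 ratio 3.08, interval 2.79 to 3.38), in 44 of 120 cells at D3 and 33 of 131 at S3. Vcan, the proteoglycan versican of early monocytes, was at 49.3 against 5.33 CPM (log2 ratio 3.21, interval 2.64 to 3.84), and Saa3, an acute phase protein gene, at 35.8 against 1.78 CPM (log2 ratio 4.33, interval 3.38 to 5.48). Of Gm5483, the gene with the largest ratio, 47.7% of the UMIs came from 1 cell. All 5 genes of the basophil list were lower at D3. Prss34 had 3070 UMIs at S3, in 8 cells, and 1 UMI at D3, so 8 cells at S3 held that difference. Border macrophage genes were higher in 4 of 5 and macrophage genes in 4 of 6, and C1qa at the macrophage level was found in 6.11% of the cycling precursors at S3 and 15.8% at D3. The summed level of the 6 macrophage genes was 11 UMIs per 10000 at S3 and 30.0 at D3, with cells between 0 and 254 at S3 and between 0.278 and 526 at D3, and none of the 6 was at 0 in either library. The part of macrophage RNA in these ratios was not tested. In cells of 1 criterion, 11 at D3 and 29 at S3, 1.09% of the genes were higher and 4.53% lower.

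In immature neutrophils, cycling cells had lower levels of genes of late maturation than non-cycling cells, but many still held such transcripts. Of the cells with Ngp, a granule gene of myelocytes, 10 of 217 cells (4.61%, interval 2.23 to 8.31%) were cycling in brain S3, 39 of 243 cells (16.0%, interval 11.7 to 21.3%) in brain D3, 60 of 495 cells (12.1%, interval 9.38 to 15.3%) in dura mater S3 and 36 of 320 cells (11.2%, interval 8.00 to 15.2%) in dura mater D3. As a log2 ratio, D3 over S3 was 1.80 (interval 0.77 to 2.97) in the brain and -0.11 (interval -0.75 to 0.51) in the dura mater. The brain difference was present after thinning to 5000 UMIs, with 3.99% against 13.4%, and in cells of 1 criterion, with 4.05% against 14.7%. Brain S3 had the lowest share and brain D3 the highest.

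Cycling cells were more frequent where a gene of late maturation was not detected. Among cells without a UMI of Mmp8, 4 of 9, 20 of 34, 41 of 92 and 24 of 60 were cycling, and among cells with one 6 of 208, 19 of 209, 19 of 403 and 12 of 260. Cebpe gave the reverse. Without a UMI of Cebpe 1 of 97, 0 of 82, 1 of 181 and 0 of 121 cells were cycling, and with one 7.5%, 24.2%, 18.8% and 18.1%. In each library all but at most 1 of the cycling cells had a UMI of Cebpe. A UMI of Cxcr2, a gene of late maturation, was found in 7 of 10 cycling cells in brain S3 and 30 of 39 in brain D3. It was found in 26 of 60 in dura mater S3 and 20 of 36 in dura mater D3. The cells without Cebpe had a median of 8434, 9227, 6816 and 11112 UMIs and the cycling cells with it 34834, 32664, 30706 and 36841. The cells without Mmp8 had a median of 25248, 30551, 17659 and 23515 UMIs and those with it 10555, 14266, 9015 and 15793. The part of depth in either split was not tested.

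The levels of these genes differed in the same directions. Mmp8 was at 329.6 CPM in brain S3, 299 in brain D3, 88.6 in dura mater S3 and 218 in dura mater D3 in cycling and 3189, 1924, 3145 and 2350.2 CPM in non-cycling immature neutrophils. Retnlg, a resistin-like gene of mature neutrophils, was at 2808, 2283, 625 and 1571 against 22922, 15428, 19170.3 and 19472 CPM, and Cxcr2, the chemokine receptor with which neutrophils leave the marrow, at 124, 91.0, 45.2 and 55.7 against 532, 354, 387 and 426 CPM. All 3 were lower in cycling cells in each library. Fcnb was higher in the cycling cells, at 494 CPM in brain S3, 319.7 in brain D3, 545 in dura mater S3 and 495 in dura mater D3 against 19.3, 38.8, 67.1 and 48.2 CPM. Cebpe was at 456, 509.8, 682 and 514 against 102, 121, 214 and 153 CPM. The inhibitor Cdkn2c was at 47.1, 70.6, 65.1 and 62.3 against 2.58, 1.85, 3.63 and 3.16 CPM, and so lay far apart in each library.

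Between D3 and S3 in the dura mater, 1.38% of 5154 genes were at least 2-fold higher and 2.19% at least 2-fold lower in the cycling immature neutrophils. Retnlg (1.33) and Mmp8 (1.30) were the 2 of 6 genes of the mature neutrophil list past 2-fold, and no S phase or G2/M gene was. Ifitm1 was at 121 against 3.52 CPM (log2 ratio 5.10, interval 3.95 to 6.57), with 66.7% of its UMIs from 1 cell. The mast cell list was lower in 5 of 5, but at least 81.3% of the UMIs of the 4 named genes Cpa3, Cma1, Mcpt4 and Tpsb2 came from 1 cell, and the 195 UMIs of the collagen gene Col1a2 at D3 came from 2 cells. With all cells weighted equally, 2.46% of the genes were higher and 3.41% lower.

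Among the lineages, macrophages had the largest ratio of D3 to S3 in the brain. Of the cells assigned by C1qa, a chain of complement C1q, 8 of 801 cells (0.999%, interval 0.432 to 1.96%) were cycling in brain S3, 164 of 2463 cells (6.66%, interval 5.71 to 7.72%) in brain D3, 12 of 510 cells (2.35%, interval 1.22 to 4.07%) in dura mater S3 and 40 of 830 cells (4.82%, interval 3.46 to 6.50%) in dura mater D3. The log2 ratio of D3 to S3 was 2.74 (interval 1.72 to 3.97) in the brain, a 6.67-fold difference, and 1.03 (interval 0.08 to 2.10) in the dura mater. The difference was in the same direction after thinning to 5000 UMIs, with 0.599% in brain S3, 3.40% in brain D3, 1.36% in dura mater S3 and 3.26% in dura mater D3, and in cells of 1 criterion, with 1.06%, 6.43%, 2.48% and 4.97%. Only 8 cycling macrophages were found in brain S3 and 12 in dura mater S3, so their gene expression was not compared with D3.

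Macrophages were assigned to microglia, border or infiltrating macrophages by the list with the most UMIs, a way that was chosen after seeing the data, and 59.1% of the cycling macrophages of brain D3 were then microglia. Cycling cells were 97 of 699 (13.9%, interval 11.4 to 16.7%) of the cells assigned to microglia, 6 of 340 (1.76%, interval 0.650 to 3.80%) of those assigned to border macrophages and 59 of 1392 (4.24%, interval 3.24 to 5.43%) of those assigned to infiltrating macrophages. By at least 3 of 6 genes of exactly 1 list, the shares were 35 of 508 (6.89%, interval 4.85 to 9.45%), 3 of 128 (2.34%, interval 0.486 to 6.70%) and 2 of 577 (0.347%, interval 0.0420 to 1.25%). Of the cells with 2 or more sets, 123 of 1093 (11.3%, interval 9.44 to 13.3%) were cycling, which is 75.0% of the cycling macrophages, and these cells had a median of 30309 UMIs. Both ways put microglia above infiltrating macrophages, by a log2 ratio of 4.31 with exactly 1 list and 1.71 with the most UMIs. Thinned to 5000 UMIs the shares by most UMIs were 8.19% in microglia and 1.53% in infiltrating macrophages. In brain S3, 4 of 464 (0.862%, interval 0.235 to 2.19%) of the cells assigned to microglia were cycling.

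In brain D3 the genes of infiltrating and border macrophages were lower in the cycling macrophages and some microglial genes were higher. At least 2-fold lower were 5 of 6 genes of the infiltrating and 4 of 6 of the border macrophage list, beside 4.11% of all genes compared, and 2 of 6 of the microglia list were at least 2-fold higher, beside 7.74%. Arg1 was at 148 CPM in cycling and 1214 CPM in non-cycling macrophages. Gpnmb, a glycoprotein gene of lipid-laden macrophages, was at 141 against 956 CPM, and Pf4, platelet factor 4 of border macrophages, at 189.5 against 1186 CPM. Apoe, the lipid carrier, was at 11273 against 40885 CPM. Olfml3, a microglial gene of the matrix, was at 984 against 363 CPM, and Sall1, the transcription factor of microglia, at 55.3 against 24.0 CPM. C1qa, which chose the cells, was at 5957 against 4899 CPM.

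Within the cells assigned to microglia, the genes of the resting state were lower in the cycling ones. P2ry12, the purine receptor of resting microglia, was at 379.8 CPM in cycling and 1083 CPM in non-cycling microglia of brain D3, and at 1619.6 CPM in non-cycling microglia of brain S3. Tmem119 was at 406, 912 and 1135 CPM in the same order, and Csf1r, the receptor for the growth factor CSF1, at 1269.8 and 2338 CPM in brain D3. Olfml3 was at 1225 and 1223 CPM, and so was not lower. Spp1, osteopontin, was at 377 against 145 CPM. These genes belong to the lists that assigned the cells, apart from Csf1r, so their levels are descriptions.

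**Figure D5:**
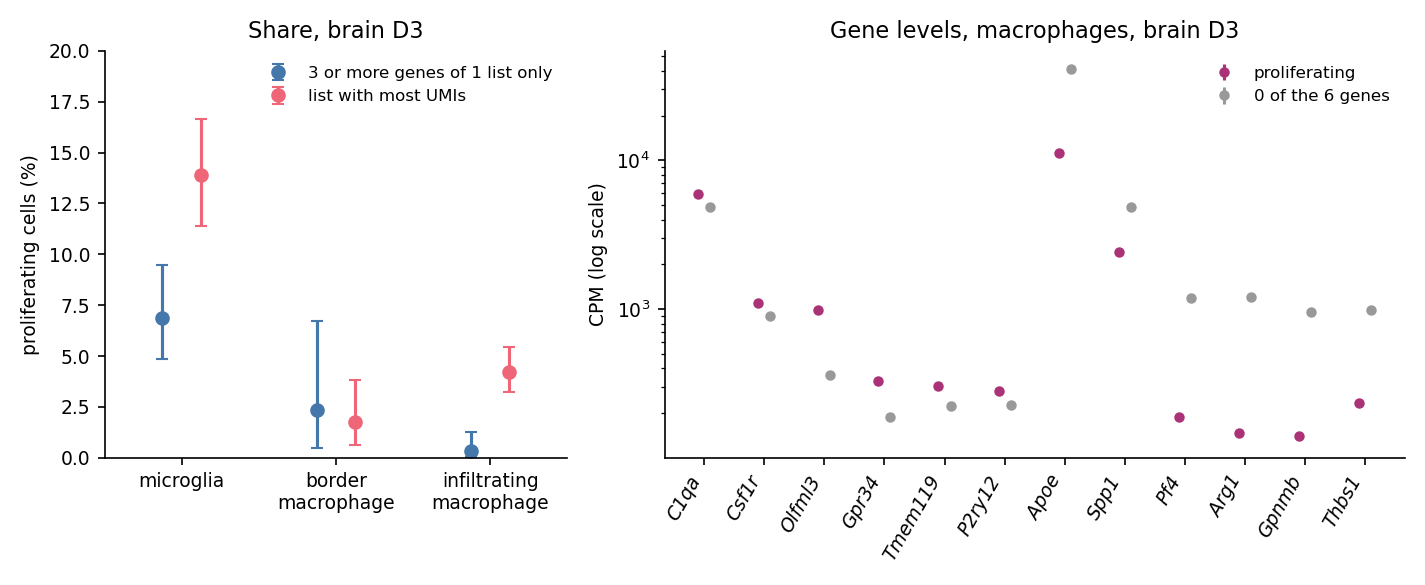
Left, cycling cells as a percentage of the macrophages of brain D3 (vertical axis) assigned to microglia, border or infiltrating macrophages in 2 ways, with exact 95% intervals. Right, gene levels in CPM on a log scale for cycling and non-cycling macrophages of brain D3. Olfml3 is higher and Arg1, Gpnmb, Pf4 and Thbs1 are lower in the cycling cells.

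In the macrophages of brain D3, 4 of 6 genes of the type 1 dendritic cell list were counted as higher in cycling cells, beside 7.74% of all genes compared. Among them, the log2 ratio was 3.21 for the chemokine receptor Xcr1 and 2.46 for the lectin receptor Clec9a. The levels of these 2 genes were low, at 14.0 and 6.00 CPM in the cycling macrophages, and they were found in only 16 and 14 of 164 cells.

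In the dura mater, 36 of the 40 cycling macrophages of D3 and 10 of the 12 of S3 were border macrophages by the list with the most UMIs. Of the border macrophages, 10 of 443 (2.26%, interval 1.09 to 4.11%) were cycling at S3 and 36 of 730 (4.93%, interval 3.48 to 6.76%) at D3. By exactly 1 list the numbers were 5 of 247 (2.02%, interval 0.660 to 4.66%) and 16 of 422 (3.79%, interval 2.18 to 6.08%), so the intervals of S3 and D3 overlapped both ways. In dura mater D3, Mrc1, the mannose receptor CD206, was at 1017 CPM in cycling and 1636 CPM in non-cycling macrophages. Pf4 was at 1834 against 2139 CPM, Folr2, a folate receptor of border macrophages, at 424 against 434 CPM, and Lyve1, a hyaluronan receptor, at 202 against 307 CPM. None of these 4 differed by 2-fold. Of the fibroblast list, 4 of 4 genes compared were counted as higher in the cycling cells, beside 9.08% of all genes compared. Of the 161 UMIs of the collagen gene Col1a2 in the cycling cells, 96.9% came from 1 cell.

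Cycling monocytes had more F13a1 and Irf8 and less Csf1r than non-cycling monocytes in each library. Of the cells assigned by Ly6c2 and Ccr2, 22 of 290 cells (7.59%, interval 4.82 to 11.3%) were cycling in brain S3, 21 of 369 cells (5.69%, interval 3.56 to 8.57%) in brain D3, 38 of 307 cells (12.4%, interval 8.91 to 16.6%) in dura mater S3 and 27 of 263 cells (10.3%, interval 6.88 to 14.6%) in dura mater D3. Set against S3, D3 had a log2 ratio of -0.41 (interval -1.35 to 0.52) in the brain and -0.27 (interval -1.04 to 0.48) in the dura mater, and both intervals held 0. F13a1, coagulation factor XIII of classical monocytes, was at 859 CPM in brain S3, 844 in brain D3, 892 in dura mater S3 and 957 in dura mater D3 in cycling and 471, 327, 619 and 574 CPM in non-cycling monocytes. Irf8, the transcription factor of monocyte and dendritic precursors, was at 492, 528, 523 and 747 against 258, 273, 334 and 325 CPM. Csf1r, which rises as monocytes mature, was at 119.6, 134, 149 and 180.4 against 452, 387, 386 and 435 CPM. All 3 differences were thus present in both tissues and at both D3 and S3. Cd209a, a lectin gene shared with dendritic cells, was found in few cells, of which 7 of 55 were cycling in brain S3, 3 of 55 in brain D3, 11 of 70 in dura mater S3 and 1 of 34 in dura mater D3.

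Between D3 and S3, 1.73% of 3180 genes were at least 2-fold higher and 1.48% at least 2-fold lower in the cycling monocytes of the brain, and 1.01% and 1.42% of 4658 genes in those of the dura mater. No S phase or G2/M gene passed 2-fold in either tissue. Heat shock genes had the largest lower values in the dura mater, and S100a9 had it in the brain. Hspa1a was at 10.8 against 1533 CPM (log2 ratio -7.15, interval -8.37 to -6.17) in the dura mater and 163 against 768 CPM (log2 ratio -2.23, interval -2.60 to -1.88) in the brain. Non-cycling monocytes of the dura mater had the same direction, at 102 CPM at D3 and 816 CPM at S3. Hspa1a belongs to the list for tissue dissociation, and the part of the preparation of each library in it was not tested.

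Ifitm1 was higher at D3 in both tissues, at 140 against 14.9 CPM (log2 ratio 3.23, interval 2.42 to 4.15) in the dura mater and 488 against 10.1 CPM (log2 ratio 5.59, interval 4.45 to 7.05) in the brain, where 72.9% of the UMIs came from 1 cell. In the dura mater it was found in 17 of 27 cycling monocytes at D3 and 8 of 38 at S3, with 49.2% of its UMIs from 1 cell. Chil3, a chitinase-like gene of monocytes fresh from the marrow, was at 2758 against 756 CPM (log2 ratio 1.87, interval 1.74 to 1.99) in the dura mater, Vcan at 201 against 74.6 CPM (log2 ratio 1.43, interval 1.01 to 1.86) and Mmp8 at 211 against 75.6 CPM (log2 ratio 1.48, interval 1.07 to 1.91). In the brain Apoe was at 1136 against 90.9 CPM (log2 ratio 3.64, interval 3.24 to 4.07). It was found in all 21 cells at D3 and 20 of 22 at S3, but 41.0% of its UMIs came from 1 cell. Cd209a was there at 55.1 against 185 CPM (log2 ratio -1.75, interval -2.43 to -1.12). It was found in 3 of 21 and 7 of 22 cells, with 39.7% of its UMIs from 1 cell. S100a9, a calprotectin chain of neutrophils and monocytes, was at 153 against 1226 CPM (log2 ratio -3.01, interval -3.38 to -2.66), with 51.7% of its UMIs from 1 cell.

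Most of the 98 cycling cells of no lineage held MHC class II genes, which present antigen to T cells, but so did most cycling granulocyte precursors. They were 19 of 846 cells (2.25%, interval 1.36 to 3.49%) in brain S3, 19 of 1209 cells (1.57%, interval 0.949 to 2.44%) in brain D3, 23 of 663 cells (3.47%, interval 2.21 to 5.16%) in dura mater S3 and 37 of 605 cells (6.12%, interval 4.34 to 8.33%) in dura mater D3. The log2 ratio of D3 to S3 was 0.82 (interval 0.03 to 1.64) in the dura mater and -0.52 (interval -1.51 to 0.48) in the brain. At least 3 genes of the MHC class II list were found in 16 of 19 cells in brain S3, 16 of 19 in brain D3, 23 of 23 in dura mater S3 and 33 of 37 in dura mater D3, and at least 3 of the type 2 dendritic cell list in 10 of 19, 6 of 19, 14 of 23 and 11 of 37. The natural killer cell list gave 6 of 19, 5 of 19, 1 of 23 and 3 of 37. The MHC class II set did not set the cells of no lineage apart. In the same order of libraries it was found in 27 of 32, 76 of 99, 104 of 131 and 102 of 120 cycling granulocyte precursors. Cycling immature neutrophils were lower, at 5 of 10, 19 of 39, 25 of 60 and 21 of 36. Genes of other cell types were also found. The erythroid set was found in 3 of 23 cycling cells in dura mater S3 and 4 of 37 in dura mater D3. The beta globin gene Hbb-bs had 6052 UMIs in 1 cell at S3 and 7697 in 7 cells at D3. Only 2 of those 7 cells had 10 or more UMIs of it, and 1 cell held 4755. The mast cell set was found in 9 of 37 cells of dura mater D3. There the 879 UMIs of the mast cell protease gene Cpa3 came from 4 cells, 2 of them with 10 or more. The set was not particular to these cells. In that library it was found in 11 of 40 cycling macrophages, 4 of 27 monocytes, 13 of 120 granulocyte precursors and 3 of 9 Cd3e-positive cells. It was found in 2 of 36 immature neutrophils and 0 of 30 Cd79a-positive cells. In brain D3, 957 UMIs of Cldn5, a tight junction gene of endothelial cells, came from 2 cells. These numbers are small, and expression within this group was not compared between D3 and S3.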

How the data were processed

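CD45+ cells of 4 libraries, 1 for each tissue and operation, were analysed. The labels name the control libraries CT, and these were taken as the sham-operated group (S3) that the study's methods describe. In the submitters' processing notes, reads were processed with Cell Ranger 3.1.0 and Seurat 3.1.0 and the build is mm10. The authors scaled every cell to 10000 UMIs, added 1 and deposited natural log values. The smallest value above 0 of a cell was taken as 1 UMI, and with it 100% of the values were whole numbers of UMIs, with a largest relative offset of 1.38e-14. Genes seen in fewer than 3 cells are not listed in a library and were counted as 0 UMIs there.

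Cells were kept with more than 1000 genes and at most 7% mitochondrial expression, and the study's upper limit of 6000 genes was used as an alternative. The lineage rule was applied in the order Cd79a, Cd3e, Mpo or Elane, Ngp (2 or more on the natural log scale), C1qa (1.5 or more), and Ly6c2 with Ccr2. A cell carried a marker set when at least 3 of its genes were detected. Counts were summed over cells, and ratios of CPM were computed for genes with 50 or more UMIs in a pair of groups of at least 20 cells each, or 5 cells in the alternatives. A group at 0 was set to 3 counts. The 6 rule genes, the 8 lineage genes, the genes of 9 process lists and 28 marker lists, and up to 5 genes per direction and comparison were eligible to be named, the last by the largest log2 ratio among genes past 2-fold with 100 or more UMIs. Genes named for the 1 cell or the few cells that held their UMIs were within this rule. The members, the lists and the comparisons were chosen with earlier results of these data known.

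With 1 library per group no test was made. Exact 95% intervals (Poisson for counts, Clopper-Pearson for shares, conditional binomial for ratios) cover counting error only. Ratios of shares were made for groups of at least 50 cells. Each cell was thinned to 5000 and 2000 UMIs in 20 draws. Doublets were scored per library with Scrublet in Scanpy 1.11.5. Its automatic threshold marked under 0.5% of the barcodes, so the highest scores were marked at 0.8% per 1000 barcodes. Python 3.11.15, NumPy 2.4.6, SciPy 1.17.1, pandas 2.3.3 and matplotlib 3.10.9 were used, and the ratios and calls were tested on simulated data. The libraries held 49003977 UMIs in brain S3, 115154317 in brain D3, 54749012 in dura mater S3 and 55887697 in dura mater D3. The alternatives were other numbers of rule genes, all barcodes, cells under 6000 genes, marked doublets left out, other lineage orders and criteria, thinning, a minimum of 200 UMIs per gene and equal weights for cells.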

Additional observations from a re-analysis of the deposited data

Results flagged for a closer look

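The cycling share differed in direction between brain and dura mater for all kept cells and for 5 lineages, with 1 library on each side of every ratio, so these differences between the tissues were not tested. For all kept cells the log2 ratio of D3 to S3 was 1.1031 in the brain and -0.2756 in the dura mater. For Cd79a-positive cells it was 1.1371 in the brain and -0.7332 in the dura mater. For Cd3e-positive cells it was 2.2035 and -0.6942. Granulocyte precursors gave -0.1628 in the brain and 0.2382 in the dura mater, and immature neutrophils 1.8002 and -0.1076. Cells of no lineage gave -0.5151 in the brain and 0.818 in the dura mater. The counting intervals of 6 of these 12 ratios held 0, those of Cd79a-positive cells and cells of no lineage in the brain, of Cd3e-positive cells and immature neutrophils in the dura mater, and of granulocyte precursors in both tissues.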

How the results depend on the processing

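No paired analysis was possible because each condition had 1 library. Values are log2 ratios of the cycling share at D3 to S3 unless said otherwise, and the causes of the shifts were not tested beyond the choice changed. With cells of 6000 or more genes left out, all kept cells gave 0.53 in the brain and -0.50 in the dura mater, Cd79a-positive cells of the brain -0.72, and Cd3e-positive cells 0.62 in the brain and -2.30 in the dura mater. Thinned to 5000 UMIs, all kept cells of the brain gave 0.49 and Cd3e-positive cells 0.85. Thinned to 2000 UMIs, all kept cells gave 0.071 in the brain and -0.56 in the dura mater, and in the brain Cd79a-positive cells gave -0.43, Cd3e-positive cells 0.12 and granulocyte precursors -0.94. With the lineage order reversed, Cd79a-positive cells of the brain gave -0.69, Cd3e-positive cells of the brain 0.44 and granulocyte precursors of the dura mater -0.54. In cells of 1 criterion these were -0.69, 0.67 and -0.23. The ratios of Cd79a-positive cells in the brain and of granulocyte precursors in the dura mater thus changed sign under some choices. The log2 ratio of microglia to infiltrating macrophages in brain D3 was 1.71 by the list with the most UMIs, a choice added after seeing the data. The other 126 ratios within lineages moved by less than their counting intervals. Of 280 percentages of the make-up 73 moved by more, 21 of them with the order reversed and 20 in cells of 1 criterion. Granulocyte precursors were then 5.59% and 6.98% of the cycling cells in brain S3, 2.70% and 5.05% in brain D3, 12.9% and 10.7% in dura mater S3 and 3.68% and 7.05% in dura mater D3. Monocytes were 35.3% and 9.63%, macrophages 46.8% and 63.8%, in brain D3.

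The share of genes past 2-fold depended on the minimum of UMIs and on cells that met several criteria. With 200 UMIs or more the number of genes was lower by over 1.5 times in 28 of 28 counts, up to 16.1-fold, and these percentages moved as far. At D3 over S3, they were 1.3% lower in granulocyte precursors and 0.868% higher in monocytes of the brain, and in the dura mater 2.19% higher and 1.34% lower in Cd79a-positive cells, 1.32% higher and 0.445% lower in granulocyte precursors, 0.411% lower in immature neutrophils and 0.906% lower in monocytes. In cycling over non-cycling cells of dura mater S3, 10.4% were higher in immature neutrophils and 6.11% in monocytes. In cells of 1 criterion 10 of 28 counts moved by over 1.5 times, up to 53.3-fold, with as few as 5 cells in a group. At D3 over S3, 1.15% of genes were then higher in Cd3e-positive cells and 3.09% in granulocyte precursors of the brain, and in the dura mater 0.286% were higher in Cd79a-positive cells, 1.09% higher and 4.53% lower in granulocyte precursors, and 0.454% higher and 3.41% lower in immature neutrophils. In cycling over non-cycling Cd3e-positive cells of brain S3, 14.3% were higher and 15.4% lower. With cells weighted equally, 2.46% were higher and 3.41% lower in immature neutrophils of the dura mater. Without the marked doublets 0 of 28 counts moved by over 1.5 times. Counting error is largest in groups under 20 cells, for which levels are given but no count of genes past 2-fold, apart from these alternatives.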
